A study of Mus musculus with 6 samples.

Results

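Tight junction genes, 10 in number, were followed in the lateral ventricular choroid plexus of mice at embryonic day 15 (E15) and in the adult: the claudins Cldn2, Cldn6, Cldn11 and Cldn12, the MARVEL protein Marveld3, the immunoglobulin superfamily proteins Jam3 and Igsf5, and the plaque proteins Tjp1, Cgnl1 and Magi1. Each was found by its gene symbol among the transcript clusters of the deposited tables. A transcript cluster is a group of exon probe sets summarised together, as a rule for 1 gene, though some carry a second symbol. All 10 had an entry, with 1 cluster each, out of 3956 clusters in all. Of these clusters, 1805 are in a gene-level table that keeps folds of at least 2 past a corrected p of 0.05, and 3369 are in a second table chosen for a difference in exon usage, with 1218 in both. Cldn2, Tjp1, Jam3, Marveld3, Igsf5 and Cgnl1 are in both tables, Cldn11 and Cldn12 in the gene-level table alone, and Cldn6 and Magi1 in the splicing table alone.

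The tissue was whole plexus of healthy Swiss Webster mice, with its stroma and blood vessels, and no gene was altered and no treatment given. The E15 group was 3 pools of mixed sex, labelled as 30 embryos each, and the adult group 3 pools from females, labelled as 10 mice each. The study's own texts differ on the number of animals per pool. Amplification of the RNA took 2 rounds, and each pool went on 1 exon array, 6 arrays in all. Age and sex cannot be told apart in this design: the Y-linked gene Ddx3y had a fold of 24.1 toward E15, and of the 10 genes Cldn2 lies on the X chromosome. In bulk tissue, fewer cells of a type and less RNA per cell cannot be told apart either.

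In the plexus, epithelial cells are joined near their apical side by belts of tight junction strands, which limit how freely solutes from leaky stromal vessels slip between the cells into the ventricle. Claudins are membrane proteins with 4 spans that polymerise into strands, and their makeup sets whether the seal blocks ions or conducts them. MARVEL proteins and junctional immunoglobulin proteins lie in or beside the strands, and plaque proteins under the membrane tie both to actin and to signalling proteins. In the brain, claudins also occur in vessels and in myelin, so that a whole plexus can hold claudin RNA from more than its epithelium.

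The start regions of the 4 claudin genes are shown because their values went in both directions, Cldn2 and Cldn12 being higher in the adult and Cldn6 and Cldn11 at E15. Each is the 250 bases before a transcript start in RefSeq, build GRCm38.p6, written 5′ to 3′ on the gene's strand. Capitals mark the TATA box motif TATAAA, the box motif CCAAT, the GC box motif GGGCGG and the E-box motif CAGGTG, read on either strand, and no marked letters overlap. Cldn2 lies at chrX:139800558-139800807 on the plus strand, Cldn6 at chr17:23679115-23679364 on the plus strand, Cldn11 at chr3:31149670-31149919 on the plus strand and Cldn12 at chr5:5514977-5515226 on the minus strand.
Cldn2: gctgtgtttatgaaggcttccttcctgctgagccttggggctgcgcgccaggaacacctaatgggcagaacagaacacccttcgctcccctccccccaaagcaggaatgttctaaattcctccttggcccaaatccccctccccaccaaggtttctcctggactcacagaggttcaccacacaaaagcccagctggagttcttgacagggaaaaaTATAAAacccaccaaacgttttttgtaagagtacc
Cldn6: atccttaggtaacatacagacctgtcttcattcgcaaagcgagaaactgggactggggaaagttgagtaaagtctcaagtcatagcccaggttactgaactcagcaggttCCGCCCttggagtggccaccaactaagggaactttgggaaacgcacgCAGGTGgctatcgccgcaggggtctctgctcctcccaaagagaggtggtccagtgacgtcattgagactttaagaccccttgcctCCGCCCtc
Cldn11: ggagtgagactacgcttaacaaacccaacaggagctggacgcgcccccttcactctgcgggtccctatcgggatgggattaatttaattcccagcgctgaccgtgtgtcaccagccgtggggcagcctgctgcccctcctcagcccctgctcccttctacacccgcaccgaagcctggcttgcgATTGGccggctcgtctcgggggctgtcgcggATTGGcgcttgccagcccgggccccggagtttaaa
Cldn12: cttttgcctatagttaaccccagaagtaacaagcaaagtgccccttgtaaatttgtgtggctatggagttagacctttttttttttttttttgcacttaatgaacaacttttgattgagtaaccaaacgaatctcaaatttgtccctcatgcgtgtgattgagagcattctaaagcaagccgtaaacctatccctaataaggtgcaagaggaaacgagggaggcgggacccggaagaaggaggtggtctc

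The Cldn2 window held 1 TATAAA, with its first base 35 bases before the start, and 4 CpG dinucleotides at 52% GC. No TATAAA was in the windows of the other claudins. In the Cldn11 window, at 63.6% GC with 19 CpG, there were 2 CCAAT motifs, both on the reverse strand, 66 and 35 bases before the start. The Cldn6 window, at 53.6% GC with 9 CpG, held 2 GGGCGG motifs on the reverse strand and 1 CAGGTG, 93 bases before the start. The Cldn12 window, the most upstream of its 3, had 42% GC, 6 CpG and none of these motifs, whereas each of its other windows, with 16 and 20 CpG, held 1 CCAAT and 1 GGGCGG. Among all 32851 windows of this length, TATAAA was in 12.4%, CCAAT in 33.8%, GGGCGG in 32.7% and CAGGTG in 17.2%, and the medians were 52.4% GC and 6 CpG. Of the plaque genes, Tjp1 (63.2% GC, 22 CpG) and Cgnl1 (70.8% GC, 20 CpG) each had 2 GGGCGG motifs and no TATAAA, although their values went in opposite directions. Magi1 had 2 windows with 5 CpG each, one with 2 GGGCGG motifs, 1 CCAAT and 1 CAGGTG, the other with none of these. Windows were matched for 7 of the 10 genes, and these matches are a description of letters, not of bound sites.

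Values are on the log2 scale, merged by the authors to 1 number per age and centred near 0 for each cluster, so that they show how far the ages lie apart but give no level of expression. Differences are given as adult minus E15, positive where the adult value was higher, and folds are 2 raised to the size of the difference. In these tables no array has a column of its own, and values per array were not analysed here, so no error or test is given for any gene. Of the authors' own test only the selection of the gene-level table was used, which 8 of the 10 genes passed and which 45.6% of the clusters of both tables passed. Because the genes were chosen with earlier results of these data known, their share is not read against that of all clusters. Without a spread, neighbours in the order of differences cannot be told apart. No levels can be compared between genes.

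Of the 10 genes, 5 had the higher value in the adult (Igsf5, Cldn2, Marveld3, Cgnl1 and Cldn12) and 5 at E15 (Jam3, Tjp1, Cldn11, Cldn6 and Magi1), the direction of Cldn6 and Magi1 turning under 1 of the centrings described further on. Over all clusters of both tables, 45.9% were higher in the adult, so the split of the genes lies near that of the tables. In the gene-level table, 5 of the 8 genes present were at least 2-fold higher in the adult, where 48.8% of all its clusters were, and 3 were higher at E15, where 51.2% were. In the splicing table, 2-fold was reached by 6 of 8, 4 toward the adult and 2 toward E15, against 38.1% of all its clusters. The median difference was 0.14 over the 10 genes, the midpoint between Cldn12 and Magi1, and -0.16 over all clusters. Without the cluster that Igsf5 shares with Pcp4 the median of the genes was -0.77, so it gives them no common direction. It was 2.08 over the genes higher in the adult and -1.00 over those higher at E15. By place in the junction, 4 of the 7 transmembrane genes and 1 of the 3 plaque genes were higher in the adult.

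**Figure D1:**
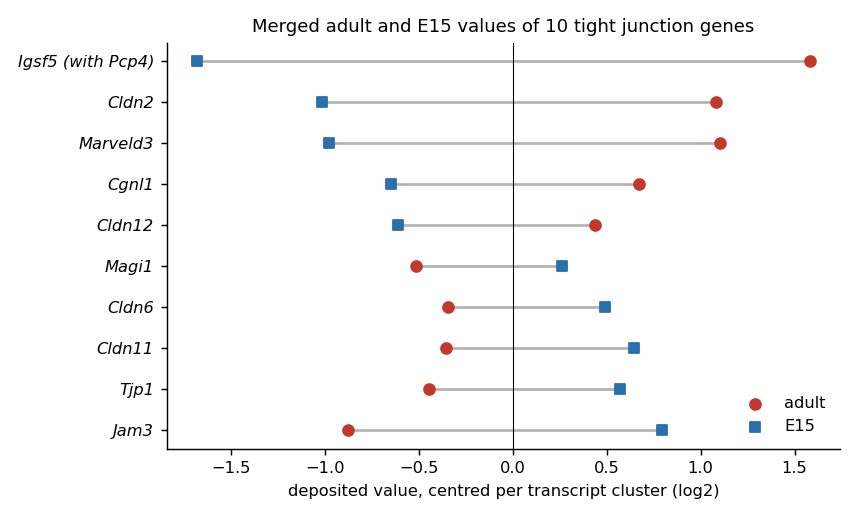
Merged adult (red circles) and E15 (blue squares) values of the 10 genes, as deposited, centred per transcript cluster on the log2 scale, with no error because the arrays of an age were merged. Igsf5, whose cluster is shared with Pcp4, spans 3.26 and Magi1, with the shortest line, 0.77.

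Cldn2, the claudin of leaky epithelia that forms a pore for small cations and water, had the value 1.08 in the adult and -1.02 at E15. Its difference of 2.10, a fold of 4.28, ranked 167th among the 880 clusters higher in the adult and was the largest of the claudins, resting in the splicing table on 10 probe sets. Cldn12, a widely expressed claudin linked with calcium permeability, had 0.44 in the adult and -0.61 at E15. This difference of 1.05, a fold of 2.07, ranked 814th of 880 and so lay close to the limit of the table. Both were higher in the adult, Cldn2 by about 1 log2 unit more than Cldn12.

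Cldn6, a claudin of embryonic epithelia, had the value -0.34 in the adult and 0.49 at E15. The difference of -0.84, a fold of 1.79 toward E15, did not reach 2-fold, and it was larger in size than 82.7% of the clusters found in the splicing table alone. The splicing table gives 3 probe sets for Cldn6, the fewest of the 8 genes in that table and below the median of 13. Its next coding gene on the chromosome is the related claudin Cldn9, which had no entry. Cldn11, the claudin of myelin and of the Sertoli cell barrier, also known from the plexus epithelium, had -0.35 in the adult and 0.65 at E15. Its difference of -1.00, a fold of 2.00, was the smallest of all 1805 clusters in the gene-level table. Cldn11 was also the gene of the 10 whose values were least evenly centred, with a sum of 0.29.

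Of 23 claudin genes listed by RefSeq only these 4 had an entry, and their median difference was 0.11. Cldn1, Cldn3 and Cldn5, the first and second known from epithelia and the last the main claudin of brain vessels, had none. A gene without an entry did not meet the conditions of either table, which does not say whether it was expressed.

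Marveld3, a MARVEL protein related to occludin, had the value 1.10 in the adult and -0.98 at E15, a difference of 2.08 and a fold of 4.23. It ranked 174th of 880, close to Cldn2 at 167th, and rested on 7 probe sets. The other MARVEL proteins, occludin (Ocln) and the tricellular protein Marveld2, had no entry. None of the 3 angulins, the receptors that bring Marveld2 to corners where 3 cells meet, had one.

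The junctional immunoglobulin genes held the largest difference of the 10 genes in each direction. Igsf5, also called JAM4, an adhesion protein that binds the scaffold Magi1, had 1.58 in the adult and -1.68 at E15. The difference of 3.26, a fold of 9.57, ranked 36th of 880, within the top 4.09% of the clusters higher in the adult. This cluster carries Pcp4, a small calmodulin-binding protein of neurons, as a second symbol, and its value cannot be divided between them. Its only RefSeq accession names Igsf5, and in the RefSeq order of chromosome 16 the coding gene Itgb2l lies between Igsf5 and Pcp4. Neuronal markers were higher in the adult for Camk2a (2.66), Syt1 (1.97) and Snap25 (1.52) and higher at E15 for Dcx (-2.29), a gene of immature neurons, and the progenitor genes Nes (-1.54) and Pax6 (-1.11). Whether neuronal RNA has a part in the Igsf5 value was not tested.

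Jam3, a junctional adhesion molecule of epithelia, vessels and leukocytes, had -0.87 in the adult and 0.79 at E15. Its difference of -1.67, a fold of 3.18 toward E15, ranked 356th of 925 and was the only one of the 5 genes higher at E15 to pass 3-fold. The endothelial adhesion molecule Esam (listed as Esam1) was also higher at E15, by a fold of 2.52, and the coxsackie and adenovirus receptor Cxadr differed by -0.57. With Jam3 and Igsf5 these make 4 of 7 junctional immunoglobulin genes with an entry, 1 higher in the adult and 3 at E15. F11r and Jam2, the closest relatives of Jam3, had no entry.

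Among the plaque proteins, Tjp1 (ZO-1), the scaffold that binds claudins and links them to actin, had the value -0.44 in the adult and 0.57 at E15. The difference of -1.01, a fold of 2.02, ranked 896th of 925, again near the limit of the table, and the splicing table gives 32 probe sets for it, the most of those 8 genes. Cgnl1 (paracingulin), which links junctions to the cytoskeleton, had 0.67 in the adult and -0.65 at E15. Its difference of 1.32, a fold of 2.49, ranked 524th of 880 on 23 probe sets. Magi1, a scaffold with many PDZ domains, had -0.51 in the adult and 0.26 at E15 on 27 probe sets. At -0.77, a fold of 1.71 toward E15, its difference was below 2-fold. In size it exceeded 76.9% of the clusters in the splicing table alone, a set that again leaves out all gene-level clusters. Cgnl1 and the other plaque members thus went in opposite directions, as did Igsf5 and its binding partner Magi1.

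**Figure D2:**
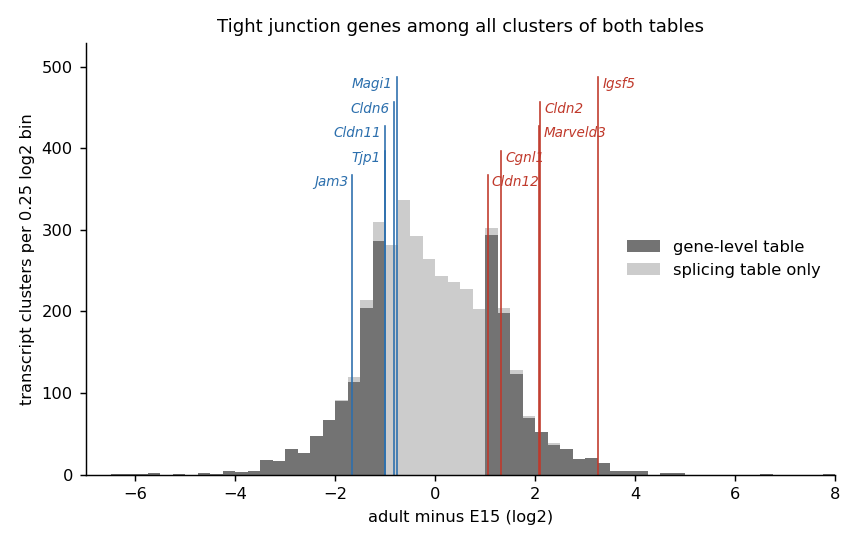
Number of transcript clusters in bins of 0.25 log2 by their adult minus E15 difference, with the 1805 clusters of the gene-level table in dark grey and the 2151 in the splicing table alone in light grey. Labelled lines mark the 10 genes: Cldn11, Tjp1 and Cldn12 sit at the inner edges of the gene-level table, Cldn6 and Magi1 between them, and Igsf5 at 3.26 in the right tail.

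Ranks within the gene-level table were spread in both directions. Toward the adult, Igsf5, Cldn2 and Marveld3 exceeded 4-fold, Cgnl1 lay at 2.49-fold and Cldn12 near the limit at 2.07-fold. Toward E15, Jam3 reached 3.18-fold, and Tjp1 and Cldn11 lay at the limit. At least 3-fold higher in the adult were 3 of the 8 genes and 18.9% of all clusters of that table, and at E15 1 gene and 21.6% of the clusters. Differences and counts depend on how the values are centred, since centring adds a constant to the differences of a table. Centring each age on the median of the gene-level table, which holds no cluster under 2-fold, adds 0.85 to its clusters, and Jam3 then stood at -0.81, Tjp1 at -0.16, Cldn11 at -0.15 and Cldn12 at 1.90. The size and sign of this constant follow from that selection. With 925 clusters higher at E15, 880 in the adult and none under 2-fold, the median difference lies at the E15 limit, at -1.01. With that constant 0 of the genes and 15.5% of the clusters were 2-fold higher at E15. Centring on the median of the splicing table adds 0.16, which left Jam3 at -1.50, Tjp1 at -0.85 and Cldn11 at -0.84, with 1 gene and 40.2% of the clusters 2-fold higher at E15. Cldn6 and Magi1, which are in the splicing table alone, were at -0.67 and -0.61 with that constant. The gene-level constant, if added to them too, would put Cldn6 at 0.018 and Magi1 at 0.080. Their direction thus depends on whether a constant set by the 2-fold selection is added. The other 8 genes kept theirs under both, as any difference of at least 2-fold must under constants of this size. With the gene-level constant 7 genes and 71.4% of all clusters were higher in the adult.

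Other genes of the tight junction were taken from 5 lists, of claudins, MARVEL proteins, junctional immunoglobulin proteins, angulins and plaque proteins, with 51 genes in all. An entry was found for 17 of them, 8 higher in the adult and 9 at E15, with a median difference of -0.20. Of the 17, 5 higher in the adult and 4 at E15 were in the gene-level table, which holds 45.6% of all clusters. Without the 10 genes above, 7 were left, 3 higher in the adult and 4 at E15. Of these 7 only Esam was in the gene-level table, a low share because most of the 10 genes taken out were in it. The plaque list had 8 of its 15 genes, 4 in each direction, with a median of 0.06. Tjp3 (ZO-3), a relative of Tjp1, differed by 0.93 and the multi-PDZ scaffold Mpdz (MUPP1) by 0.97, both just under 2-fold toward the adult. Inadl (PATJ), which joins the junction to the Crumbs complex, was at 0.31, the Magi1 relative Magi3 at -0.20 and the angiomotin family protein Amotl2 at -0.41. With the gene-level constant of 0.85 added to all clusters, Cldn6, Magi1, Magi3, Amotl2 and Cxadr of the 5 lists would turn toward the adult. With that constant 71.4% of all clusters were higher in the adult. Cgn and Magi2 had no entry. Of the ZO proteins with an entry, Tjp1 therefore had its higher value at E15 and Tjp3 in the adult.

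The annotation columns of the tables carry the ontology term tight junction for 21 clusters, 9 higher in the adult and 12 at E15. Without annotations inferred electronically 14 were left, 5 higher in the adult and 9 at E15. Of the 10 genes, 8 carry it, all but Jam3 and Marveld3. The 13 clusters besides had 5 higher in the adult and 8 at E15. The atypical protein kinase C Prkcz, which phosphorylates the polarity protein Pard3, had the largest difference toward the adult among them, with a fold of 3.00. Toward E15 the folds were 4.30 for Cdh5 (VE-cadherin) and 2.82 for Cacng4, a protein of the claudin superfamily that assists glutamate receptors. Pard3 itself differed by -0.26, Lin7b by 0.47, the vesicle GTPase Rab13 by -0.39 and its effector Micall2 by -0.19, all small beside the differences of Igsf5 and Cldn2. The gene-level constant of 0.85, if added to all clusters, would turn Pard3, Rab13, Micall2, Cxadr and Amotl2 toward the adult, besides Cldn6 and Magi1.

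**Figure D3:**
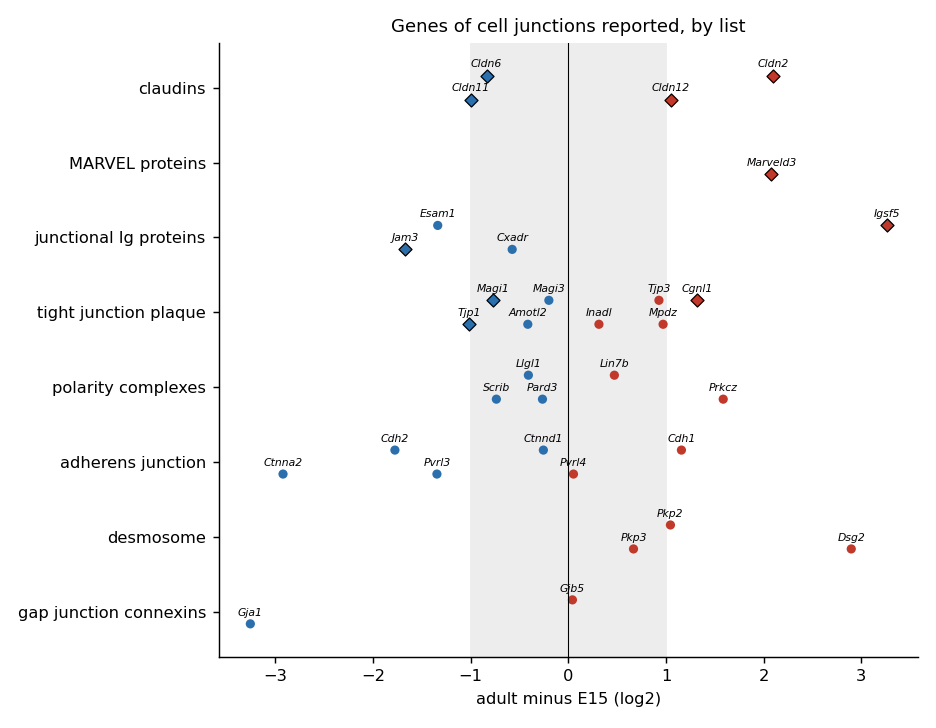
Adult minus E15 difference (log2) of the genes of cell junctions reported here, by list, red where higher in the adult and blue where higher at E15. Diamonds with a black edge mark the 10 genes, circles the other list members, and the grey band is under 2-fold, where most of the plaque list lies.

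Markers of the cell types in a plexus are given beside these values, as differences, because values centred per cluster allow no summed level. Of 16 epithelial markers, 7 clusters were found for 6 genes, since the prolactin receptor Prlr has 2, one of them (97.1-fold) shared with Agxt2. Of these genes 5 were higher in the adult, led by Prlr (7.87), klotho (Kl, 4.78), a co-receptor for fibroblast growth factor, and the channel Trpv4 (2.92), with the potassium channel subunit Kcne2 at -1.13. The defining epithelial genes Ttr, Folr1, Aqp1, Otx2, Clic6 and Kcnj13 had no entry in either table, so the label of the tissue could be set against few of them. All 8 endothelial clusters found, of 14 genes, were higher at E15 with a median of -1.34, among them Cd93 (-2.51) and Cdh5 (-2.10). Of 8 mesenchymal clusters, from 10 genes, 7 were higher at E15, Col3a1 by -3.14 and Fn1 by -3.10. Jam3 and Esam are both known from vessels, and whether the vessel share has a part in their values was not tested.

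Cldn11 stood apart from the other oligodendrocyte markers reported here. Mbp (2.09), Mal (1.12) and Mobp (1.05), all proteins of myelin, were higher in the adult, 3 of 3, whereas Cldn11 was at -1.00. All 10 cell cycle genes were higher at E15, Top2a by the most at -4.65, and so were all 8 erythroid clusters found of 9 genes, up to -5.55 for the embryonic globin Hbb-y. Macrophage and MHC class II markers were mixed, with Cd74 at 3.16 and Csf1r at -0.92. The part of these cells in the values of the tight junction genes was not tested.

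**Figure D4:**
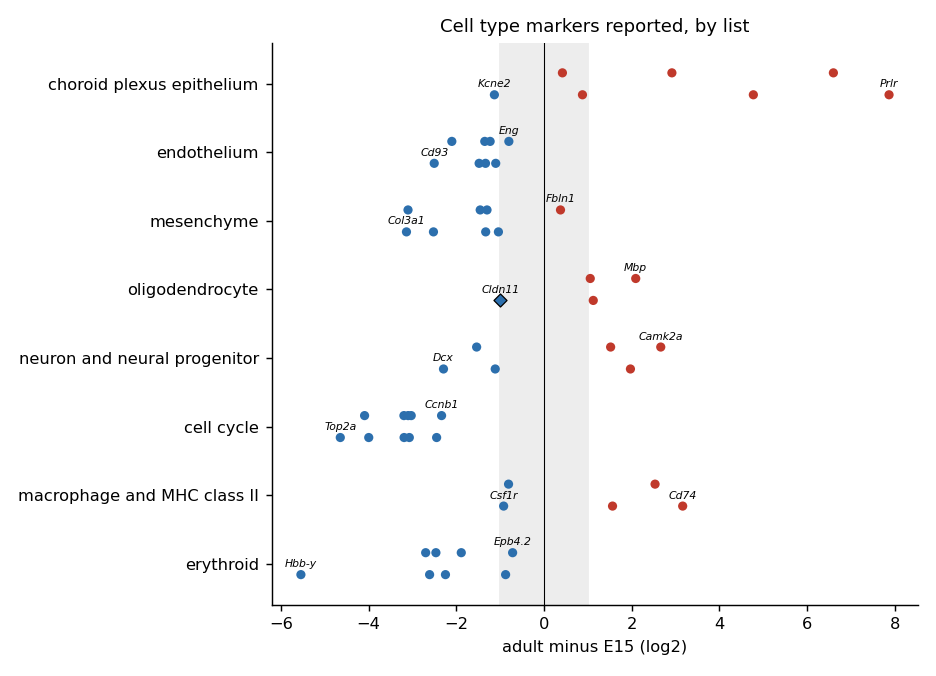
Adult minus E15 difference (log2) of the cell type markers reported here, by list, each circle 1 transcript cluster, with the lowest and highest of a list named and the grey band under 2-fold. Endothelial, cell cycle and erythroid markers all lie toward E15, and Cldn11 (diamond) lies toward E15 while the other oligodendrocyte markers plotted lie toward the adult.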

How the data were processed

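Lateral ventricular choroid plexus RNA, 3 pools per age, was hybridised to Affymetrix mouse exon arrays. The log2 values were made by the authors before deposit with Affymetrix Power Tools and RMA, as the submitters' processing notes name them, and merged to 1 value per age. Versions and the genome build are not given in the sources used here. Both deposited tables also hold the authors' own comparisons (fold change, direction, splicing index), which were not used. The deposited number of probe sets behind a splicing index was read as a plain number. Values per array were not analysed here, so no test, error or signal over background is given, and the 6 arrays limit precision. Values of the 1218 clusters in both tables were identical.

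Adult minus E15 was computed for each cluster (Python 3.11.15, matplotlib 3.10.9), and the code was tested on simulated data. Symbols were matched as whole entries, older ones through RefSeq synonyms. Promoter windows came from RefSeq. Named genes are the 10 genes, all members of the junction lists and ontology term with an entry, and the marker genes with the largest differences; further markers were named after their values were seen. Some listed genes and 1 junction list are not reported here. The genes and lists were chosen with earlier results of these data known. Alternatives were a 3-fold limit, re-centring on the medians of each table and, added after the data were seen, of either table for all clusters, the other table's values, clusters with 1 symbol, the smallest cluster of a gene and annotations without electronic ones. A value was taken as moved past a factor of 1.5.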

Additional observations from a re-analysis of the deposited data

How the results depend on the processing

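Of the 10 genes, Cldn6 (0.018) and Magi1 (0.080) changed direction when all values were re-centred on the gene-level table, an alternative added after the data were seen, which left 3 genes (from 5) higher at E15 and gave a median of 0.99. The other 8, each at least 2-fold, kept their direction under every alternative that gave them a value, as no added constant reached 2-fold. With the values of each age re-centred on their own table, the difference was -0.15 for Cldn11, 1.90 for Cldn12, -0.16 for Tjp1, -0.81 for Jam3 and 2.17 for Cgnl1, because a constant was added to all differences of a table, and 0 of the 10 genes, 0 of the tight junction list genes and 15.5% of the gene-level clusters were then at least 2-fold higher at E15. With all values re-centred on the splicing table, an alternative added after the data were seen, these were 1 gene (from 3), 2 list genes (from 4) and 40.2%. With folds of at least 3, 3 of the 10 genes (from 5) passed in the adult and 1 (from 3) at E15, of the list genes 3 (from 5) and 1 (from 4), and of all gene-level clusters 18.9% and 21.6%. At that limit 0 adherens genes (from 1) and 1 desmosome gene (from 2) passed in the adult, and after re-centring 1 adherens gene (from 3) was still 2-fold higher at E15. Without electronic annotations, 5 clusters of the tight junction term were higher in the adult (from 9) and 9 at E15 (from 12). Counts by direction of the list and term clusters were not run with all values re-centred on the gene-level table. Its constant of 0.85 would turn those higher at E15 by less than that. Clusters with 1 symbol, the other table's values and the smallest cluster of a gene moved no difference of a single gene and no count by more than 1.5 times. The first leaves Igsf5 without a value and takes the median of the genes from 0.14 to -0.77. That median was 0.88 with values re-centred on their own table and 0.30 with all re-centred on the splicing table.

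No paired analysis was possible because the tables used here carry 1 merged value per age, and values of the single arrays were not analysed here. Leaving out each replicate in turn was not run for the same reason. Both tables are selected, one on the size of the difference and one on exon usage, so shares within them are not shares of all genes on the array. Depth of signal cannot be read from centred values.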

Other observations

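Other junctions of the plexus are listed with their own values. Desmosomes, which fasten cells by keratin, had 3 of 7 genes with an entry, all with the higher value in the adult: the desmosomal cadherin Dsg2 at a difference of 2.90 (7.45-fold), the plakophilin Pkp2 at 1.05 and Pkp3 at 0.67. The adherens junction list had 6 of 12 genes, 2 higher in the adult and 4 at E15. Epithelial cadherin Cdh1 was at 1.16 (2.23-fold toward the adult), while neural cadherin Cdh2, in a cluster with a second symbol, was at -1.77 and the neural alpha-catenin Ctnna2 at -2.92. The nectin Pvrl3 was at -1.34, its relative Pvrl4 at 0.05 and the p120 catenin Ctnnd1 at -0.25. Classical cadherins of the epithelial and neural kind thus had their higher values at opposite ages, each past 2-fold as deposited. With values re-centred on their own table, Cdh2 fell under 2-fold.

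Of 20 connexins, the channels of gap junctions, Gja1, the most widely expressed of them, was at -3.25 (9.54-fold toward E15), close in size to the 3.26 of Igsf5 in the other direction, and Gjb5 was at 0.04. Polarity genes had 5 of 18 with an entry, Prkcz at 1.59, Scrib at -0.74 and Llgl1 at -0.41 besides the Pard3 and Lin7b values given above.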
